A study of Mus musculus with 12 samples.

Results

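The departure of VHH-OD-PD-1-Fc from additivity is the amount by which the effect of a construct with both binding arms differed from the sum of the effects of its single-arm relatives. It was computed for each gene on the log2(FPKM + 1) scale from the 4 group means: those of VHH-OD-Fc and VHH-PD-1-Fc were taken from that of VHH-OD-PD-1-Fc, and that of Ctrl was added. The same number is the effect of adding the OD arm where the PD-1 arm was present (VHH-OD-PD-1-Fc minus VHH-PD-1-Fc) less its effect where it was not (VHH-OD-Fc minus Ctrl). A positive value means that VHH-OD-PD-1-Fc tumours lay above the level that both effects add up to, and a negative value that they lay below it. FPKM is the number of fragments per kilobase of transcript and 1e+06 fragments, so it is scaled by length and depth. All genes with at least 1 FPKM in at least 3 of the 12 libraries were taken, which gave 14306 of 41009 gene symbols.

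All tumours grew from 4T1 cells labelled with mCherry, a mammary carcinoma line of BALB/c mice, implanted in mammary fat pads; the hosts were BALB/c females of 4 to 5 weeks. From day 7 the mice were treated intraperitoneally with VHH-OD-PD-1-Fc at 4.3 mg/kg, VHH-OD-Fc at 3.5 mg/kg, VHH-PD-1-Fc at 2.6 mg/kg or the control protein Ctrl-Fc (Ctrl) at 5 mg/kg, with 3 bulk RNA-seq libraries for each. The doses differ by weight, so the 4 groups are not a strict factorial design. The labels do not state whether libraries of a group came from different mice, and the p-values below measure the spread between libraries, part or all of which may be technical. They do not spell out OD either. The series title speaks of nanobodies to endogenous digoxin-like substances, and the design text of the series names a lung tumour model and digoxin doses, which the sample labels do not.

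A VHH, or nanobody, is the single variable domain with which camelid heavy-chain antibodies bind antigen, and the Fc part gives it an antibody's lifetime in blood. PD-1 is an inhibitory receptor of activated T cells. Blocking it is known to release T cell killing and interferon gamma, which in turn drives chemokines such as Cxcl9 and antigen presentation in tumours. Digoxin and related steroids bind the sodium pump, Na,K-ATPase. Interferons act through STAT and IRF factors, which bind a short promoter element, the interferon-stimulated response element (ISRE), and switch on antiviral genes. In bulk tumour RNA, a lower level from fewer cells of a type cannot be told apart from less RNA per cell.

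The libraries differed in ways that touch every departure. The FPKM of a library summed to 392283 to 394139 in VHH-OD-PD-1-Fc and 388142 to 401179 in VHH-PD-1-Fc, against 327792 to 345596 in VHH-OD-Fc and 330507 to 337816 in Ctrl. A shift on the log2(FPKM + 1) scale that all libraries of both groups with the PD-1 arm share equally cancels in the departure by construction. A shared change of FPKM scale need not cancel fully in low genes, because of the pseudocount of 1. Genes above 0 FPKM numbered 30348 to 31676 in VHH-OD-PD-1-Fc, 24924 to 26107 in VHH-OD-Fc and 25258 to 26203 in Ctrl. In VHH-PD-1-Fc they numbered 30257, 25553 and 30973, so its replicate 2 did not share that difference. A shift that only some libraries of a group hold need not cancel. The departure had a Spearman correlation of -0.016 with transcript length over 13533 genes, a description across genes, which are not independent. That correlation was -0.35 for VHH-OD-PD-1-Fc minus Ctrl and -0.32 for VHH-PD-1-Fc minus Ctrl, against 0.001 for VHH-OD-Fc minus Ctrl. Shorter genes thus tended to lie higher against Ctrl in both groups with the PD-1 arm. The part of length in the comparisons with Ctrl below was not tested. Libraries of VHH-OD-PD-1-Fc resembled each other more closely than libraries of any other group did. Their SD of log2 values had a median of 0.0747 over genes, against 0.123 in VHH-OD-Fc, 0.247 in VHH-PD-1-Fc and 0.140 in Ctrl. On estimated reads, a chi-square per degree of freedom was 5.13 to 6.35 between pairs of VHH-OD-PD-1-Fc libraries, against 14.6 to 69.1 between pairs in the other groups. These values exceed counting noise, as separate preparations of one RNA also would, and do not show that the libraries came from separate animals. With VHH-OD-PD-1-Fc counted as 1 sample, 3 of the 16 calls given below remained. Within their groups, 3 libraries stood apart, namely replicate 1 of Ctrl and replicate 2 of each single-arm construct. Epcam, which marks epithelial tumour cells, was present throughout, with 101, 99.5 and 97.96 FPKM in VHH-OD-PD-1-Fc tumours, against 109, 84.3 and 129 in VHH-OD-Fc tumours, 191, 189.5 and 70.5 in VHH-PD-1-Fc tumours and 14.3, 162 and 98.01 in Ctrl tumours.

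Across all genes the departure was small and leaned slightly above additivity. Its median was 0.06 (quartiles -0.13 and 0.26), and 8497 genes, or 59.4%, were positive. That lean depended on the scaling: the median became -0.02 after scaling by the median of ratios and also after quantile normalization, with 47.4% and 47.9% of genes positive. The median SE of a departure was 0.21. With limma and Benjamini-Hochberg adjustment over all 14306 genes, 13 genes (0.0909%) were called above additivity and 3 (0.021%) below it, at an adjusted p under 0.05, which makes 16 in all (0.112%). Without adjustment, 1709 genes had p under 0.05, of which 1191 were above and 518 below. A departure past 1 in size was reached by 241 genes above and 95 below.

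**Figure D1:**
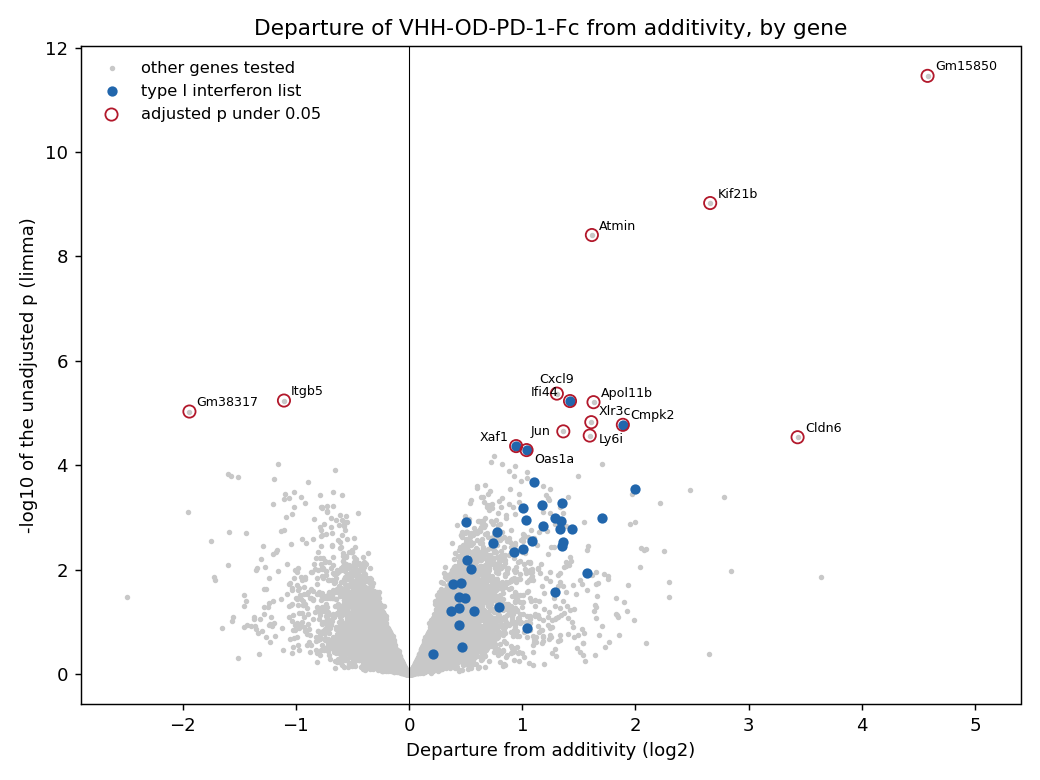
Departure from additivity of 14301 genes (x axis, log2) against -log10 of its unadjusted p from limma (y axis); blue points are the 40 genes of the type I interferon list and red rings 15 called genes. Kif21b and Atmin stand among the highest points, and the 40 interferon genes all lie right of 0, between 0.21 and 1.99.

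The components of the departure differed in how many genes were called. Adding the OD arm to the PD-1 arm (VHH-OD-PD-1-Fc against VHH-PD-1-Fc) raised 77 genes (0.538%) and lowered 43 (0.301%), 120 in all (0.839%). For the OD arm alone (VHH-OD-Fc against Ctrl) none (0%) was called by the same limma test, and 449 genes had an unadjusted p under 0.05. That is less than a share of 0.05 of the 14306 genes tested, the share that would arise on average without any effect. Both comparisons used the same variance per gene, pooled over groups whose spread differed, as given above. With library quality weights, adding the OD arm to the PD-1 arm gave 8 genes higher and 3 lower. The OD arm alone then gave 0 higher and 4 lower. Leaving out any VHH-OD-PD-1-Fc library left 3 genes called above additivity and none below, and treating these libraries as 1 sample did the same. Of the 16 genes, Gm15850, Apol11b and Xlr3c passed the filter on low values through the VHH-OD-PD-1-Fc libraries alone, so that a difference had to follow, and their values below are a description without a test. Ly6i is also given as a description, because its additive expectation lay below 0 FPKM. Leaving out 1 VHH-PD-1-Fc library gave 54 to 77 above and 16 to 28 below instead. The 16 called genes lay on 12 chromosomes in the GENCODE M21 annotation.

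Kif21b and Atmin were called in every alternative that kept them in the table. Kif21b, a kinesin that carries cargo along microtubules, had 7.99, 8.53 and 8.56 FPKM in VHH-OD-PD-1-Fc tumours, against 1.91, 1.69 and 1.64 in VHH-OD-Fc tumours, 0.7705, 0.693 and 0.637 in VHH-PD-1-Fc tumours and 2.36, 1.82 and 2.297 in Ctrl tumours. Its departure was 2.66 (SE 0.14, adjusted p = 6.79e-06), and VHH-PD-1-Fc was its lowest group. Atmin, a zinc finger protein that interacts with the ATM kinase, had 20.4, 21.1 and 21.4 FPKM in VHH-OD-PD-1-Fc tumours, against 5.74, 5.81 and 6.04 in VHH-OD-Fc tumours, 6.403, 6.62 and 6.35 in VHH-PD-1-Fc tumours and 6.15, 6.17 and 6.08 in Ctrl tumours. The 9 libraries without both arms were alike in Atmin and the VHH-OD-PD-1-Fc libraries lay apart from all of them, with a departure of 1.61 (SE 0.10, adjusted p = 1.85e-05). Gm15850, an RNA gene without a described function in the annotation, lies outside the rule for named genes and was chosen after its values were seen. It had 24.7, 22.7 and 23.1 FPKM in VHH-OD-PD-1-Fc tumours, against 0, 0.115 and 0.0555 in VHH-OD-Fc tumours, 0.0185, 0 and 0.00818 in VHH-PD-1-Fc tumours and 0, 0.0249 and 0.0924 in Ctrl tumours, with a departure of 4.58. Gm15850 and Kif21b are neighbours on chromosome 1 on opposite strands, with 206 bases between their annotated starts.

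Cldn6, Apol11b and Xlr3c also stood high in VHH-OD-PD-1-Fc tumours beside low levels in the rest. Cldn6, a tight junction claudin of embryonic epithelia, had 42.1, 43.8 and 44.7 FPKM in VHH-OD-PD-1-Fc tumours, against 0.334, 1.24 and 1.602 in VHH-OD-Fc tumours, 3.79, 6.34 and 1.46 in VHH-PD-1-Fc tumours and 0.6102, 1.52 and 1.36 in Ctrl tumours. Its departure was 3.43 (SE 0.50, adjusted p = 0.0295), over an additive expectation of 3.13 FPKM. The other 9 tested claudins had no call, and Cldn9, its neighbour in the genome, had a departure of 1.30 (SE 0.68, adjusted p = 0.485). Apol11b, of the apolipoprotein L family, had 1.66 to 2.03 FPKM in VHH-OD-PD-1-Fc tumours, against 0.0345 to 0.120 in VHH-OD-Fc, 0 to 0.187 in VHH-PD-1-Fc and 0.0885 to 0.287 in Ctrl tumours, with a departure of 1.63 over an additive expectation below 0, a level no gene can have. Xlr3c, from an X-linked family of near-identical copies between which reads may be split, had 1.77 to 2.896 FPKM in VHH-OD-PD-1-Fc tumours, against 0 to 0.0489 in VHH-OD-Fc, 0 to 0.0967 in VHH-PD-1-Fc and 0 to 0.0752 in Ctrl tumours, with a departure of 1.61.

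**Figure D2:**
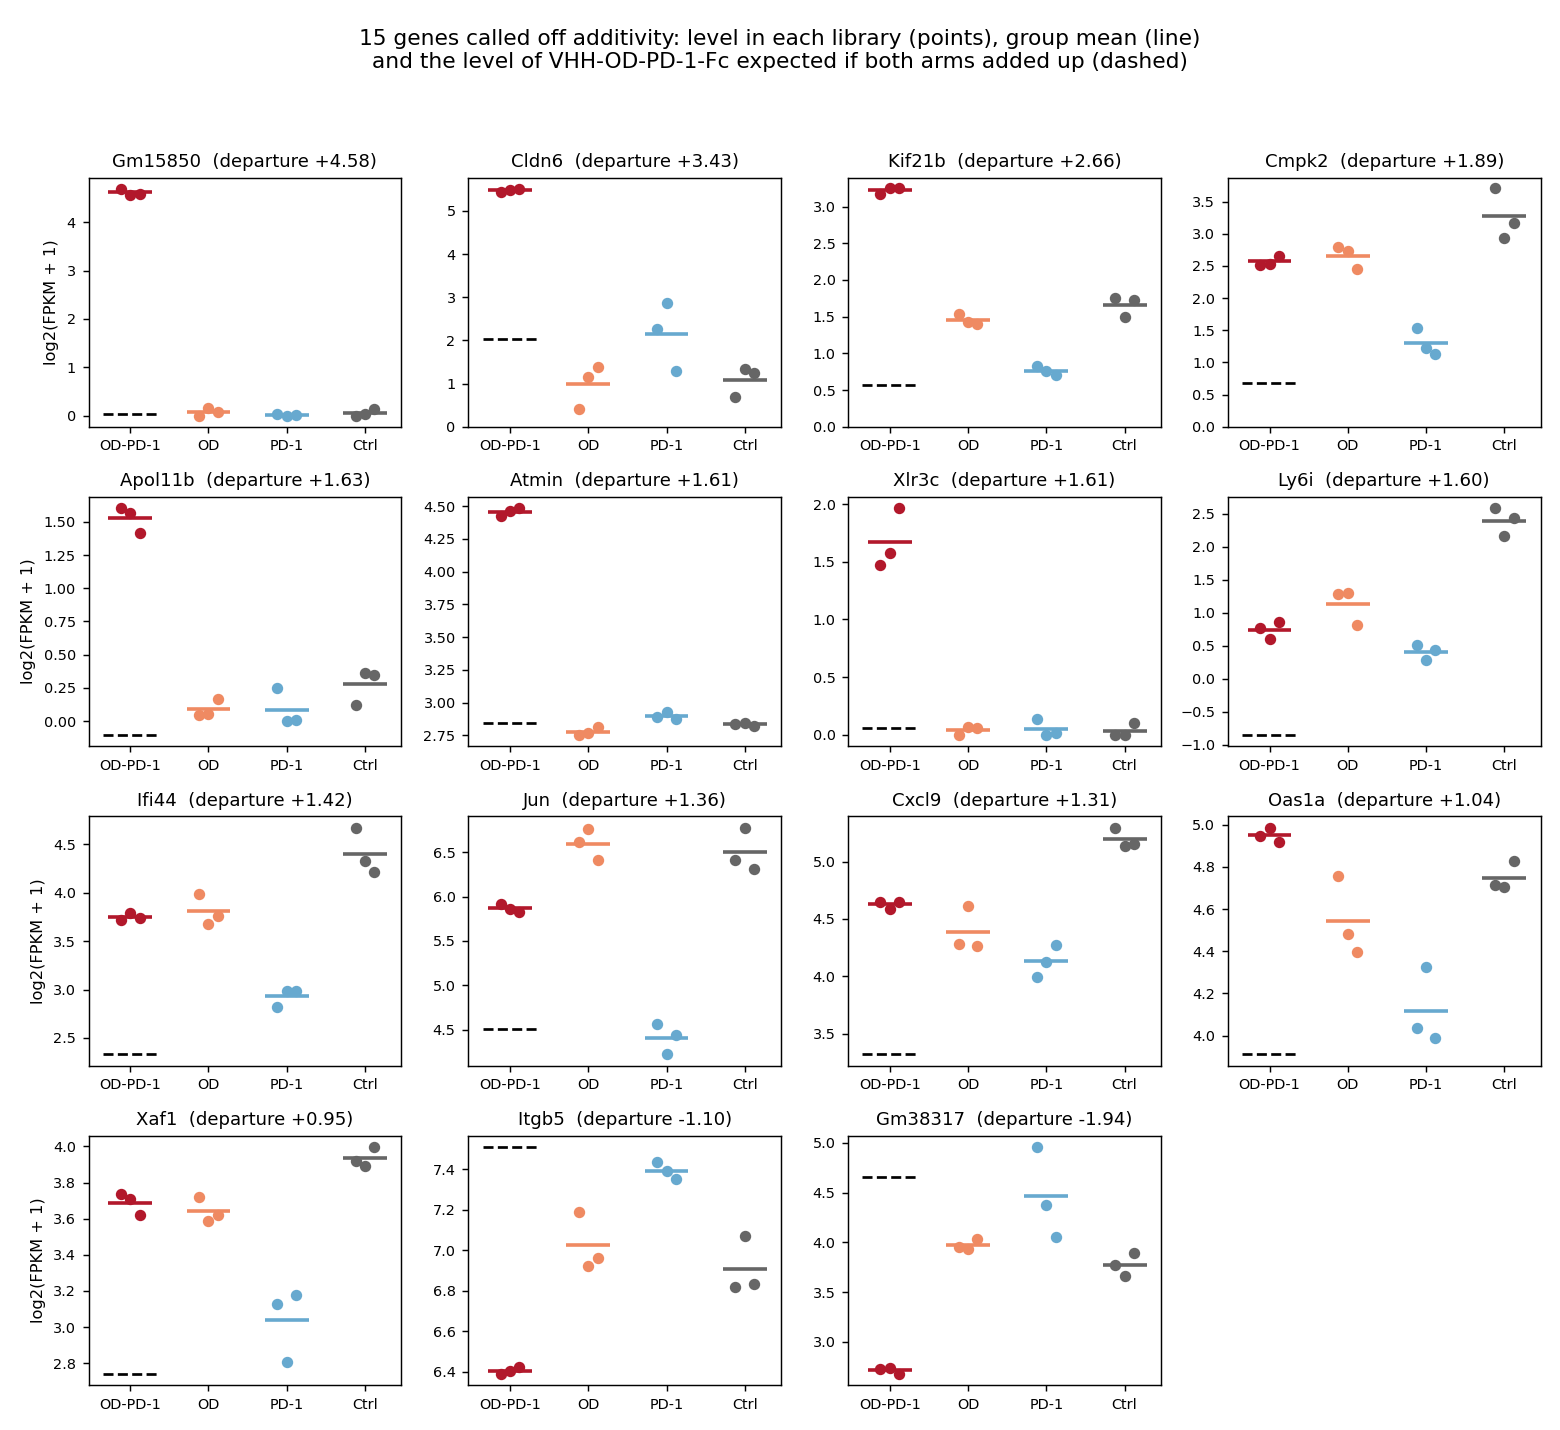
Level of 15 called genes in each library, as log2(FPKM + 1), in VHH-OD-PD-1-Fc (OD-PD-1), VHH-OD-Fc (OD), VHH-PD-1-Fc (PD-1) and Ctrl tumours; points are libraries, coloured lines group means and dashed lines the VHH-OD-PD-1-Fc level expected from additivity. Atmin, Gm15850 and Cldn6 are high in VHH-OD-PD-1-Fc alone, while Cmpk2, Ifi44, Cxcl9 and Jun lie below Ctrl in VHH-OD-PD-1-Fc yet above the dashed line.

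Below additivity, 2 called genes are described, and both were lowest in VHH-OD-PD-1-Fc tumours. Itgb5, the integrin beta 5 chain that pairs with alpha V to bind vitronectin, had 82.9, 83.6 and 84.8 FPKM in VHH-OD-PD-1-Fc tumours, against 145, 120.1 and 124 in VHH-OD-Fc tumours, 172, 167 and 162 in VHH-PD-1-Fc tumours and 112, 133 and 113 in Ctrl tumours. The groups did not overlap between VHH-OD-PD-1-Fc and the rest, and the departure was -1.10 (SE 0.14, adjusted p = 0.0126). Gm38317, a processed pseudogene in the annotation and chosen after its values were seen, had 5.42 to 5.66 FPKM in VHH-OD-PD-1-Fc tumours, against 14.2 to 15.4 in VHH-OD-Fc, 15.6 to 30.05 in VHH-PD-1-Fc and 11.7 to 13.8 in Ctrl tumours, with a departure of -1.94 (SE 0.25, adjusted p = 0.0166). Reads of its parent gene could be assigned to it.

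The genes next in order below additivity are given as values, since none of them was called. Alcam, an adhesion molecule of the immunoglobulin family, had 13.7 to 15.7 FPKM in VHH-OD-PD-1-Fc tumours, against 21.99 to 33.04 in VHH-OD-Fc, 24.5 to 29.8 in VHH-PD-1-Fc and 20.1 to 22.1 in Ctrl tumours, and a departure of -1.16 (SE 0.19, adjusted p = 0.0634). Timp2, an inhibitor of matrix metalloproteinases, had 101 to 102 FPKM in VHH-OD-PD-1-Fc tumours, against 134 to 144 in VHH-OD-Fc, 123 to 142 in VHH-PD-1-Fc and 113 to 123 in Ctrl tumours, and a departure of -0.65 (SE 0.11, adjusted p = 0.0752). In both genes VHH-OD-PD-1-Fc lay below every other library. F13a1, the coagulation factor XIII A chain that resident macrophages express, had 3.18 to 3.54 FPKM in VHH-OD-PD-1-Fc tumours, against 6.91 to 11.3 in VHH-OD-Fc, 8.75 to 14.2 in VHH-PD-1-Fc and 6.71 to 9.31 in Ctrl tumours, and a departure of -1.57 (SE 0.28, adjusted p = 0.0800). Ramp1, a partner of the CGRP receptor, was instead highest in VHH-PD-1-Fc, with 16.1 to 16.9 FPKM in VHH-OD-PD-1-Fc tumours, against 12.4 to 14.1 in VHH-OD-Fc, 39.1 to 60.9 in VHH-PD-1-Fc and 9.66 to 17.4 in Ctrl tumours, and its departure was -1.51 (SE 0.27, adjusted p = 0.0800). For Trp53i11, Coro6, Spata13 and Cpe the departures were -1.60, -1.20, -0.89 and -0.67, with adjusted p of 0.0800, 0.0800, 0.0837 and 0.0995 in limma.

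Type I interferon genes lay above additivity as a group. All 40 tested members had a positive departure, against 59.4% of all genes, and 4 of the 40 were called above additivity, beside 0.0909% of all genes. The list median was 1.02, against 0.06 over all genes. The mean log2 level of the list was 3.96, 3.94 and 3.97 in VHH-OD-PD-1-Fc, 4.11, 4.05 and 3.84 in VHH-OD-Fc tumours, 3.28, 3.39 and 3.29 in VHH-PD-1-Fc and 4.67, 4.14 and 4.23 in Ctrl. VHH-PD-1-Fc was thus lowest, and VHH-OD-PD-1-Fc overlapped VHH-OD-Fc and lay below Ctrl. The list median was 0.67 for VHH-OD-PD-1-Fc minus VHH-PD-1-Fc, with 7 of 40 genes higher, beside 0.538% of all genes, and none lower, beside 0.301%, by limma. It was -0.30 for VHH-OD-Fc minus Ctrl, where no gene was called. For VHH-PD-1-Fc minus Ctrl it was -1.02, with 33 of 40 genes lower against 32.3% of all genes, and for VHH-OD-PD-1-Fc minus Ctrl -0.40, with 17 lower against 27.1% and 2 higher against 15.1%. The list median stayed between 0.71 and 1.08 in the 24 alternatives that gave one.

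The called members were Cmpk2, Ifi44, Xaf1 and Oas1a. Cmpk2, a mitochondrial nucleotide kinase, had 4.72, 4.79 and 5.32 FPKM in VHH-OD-PD-1-Fc tumours, against 5.91, 5.64 and 4.495 in VHH-OD-Fc tumours, 1.898, 1.34 and 1.19 in VHH-PD-1-Fc tumours and 12.2, 6.67 and 7.996 in Ctrl tumours, and its departure was 1.89 (SE 0.26, adjusted p = 0.0217). Ifi44, a cytoplasmic interferon-induced protein, had 12.2, 12.9 and 12.4 FPKM in VHH-OD-PD-1-Fc tumours, against 14.8, 11.8 and 12.5 in VHH-OD-Fc tumours, 6.04, 6.93 and 6.93 in VHH-PD-1-Fc tumours and 24.5, 19.1 and 17.6 in Ctrl tumours, and its departure was 1.42 (SE 0.18, adjusted p = 0.0126). In both genes VHH-PD-1-Fc lay below all other libraries, and the VHH-OD-PD-1-Fc libraries fell among those of VHH-OD-Fc. Xaf1, an antagonist of the apoptosis inhibitor XIAP, had 11.3 to 12.3 FPKM in VHH-OD-PD-1-Fc tumours, against 10.999 to 12.2 in VHH-OD-Fc, 6.01 to 8.03 in VHH-PD-1-Fc and 13.9 to 14.96 in Ctrl tumours, with a departure of 0.95 (SE 0.15, adjusted p = 0.0407). Oas1a, which makes the oligoadenylate that activates RNase L, had 29.8, 30.7 and 29.2 FPKM in VHH-OD-PD-1-Fc tumours, against 26.03, 21.3 and 20.05 in VHH-OD-Fc tumours, 15.4, 19.03 and 14.9 in VHH-PD-1-Fc tumours and 25.2, 25.1 and 27.4 in Ctrl tumours. Here VHH-OD-PD-1-Fc was the highest group, above every Ctrl library, and the departure was 1.04 (SE 0.16, adjusted p = 0.0455). Oas1a sits in a cluster of similar Oas1 genes that may share reads.

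Uncalled members differed in the order of their groups. Isg15, a ubiquitin-like modifier, had 97.1, 86.2 and 92.3 FPKM in VHH-OD-PD-1-Fc tumours, against 79.5, 85.5 and 60.01 in VHH-OD-Fc tumours, 37.1, 38.6 and 26.6 in VHH-PD-1-Fc tumours and 186, 89.3 and 82.4 in Ctrl tumours, and a departure of 1.99 (SE 0.38, adjusted p = 0.0965). Ctrl replicate 1 held the highest value, and all VHH-PD-1-Fc libraries lay below the rest. Oasl2 had a departure of 1.10 (SE 0.20, adjusted p = 0.0837). Ifitm3, a membrane protein that blocks virus entry and not a member of the list, had 0.72 (SE 0.12, adjusted p = 0.0634). Ifitm3 was among the genes nearest the threshold, and its VHH-OD-PD-1-Fc libraries were the highest, with 1968 to 2026 FPKM in VHH-OD-PD-1-Fc tumours, against 862 to 985 in VHH-OD-Fc, 1344 to 1456 in VHH-PD-1-Fc and 1012 to 1139.6 in Ctrl tumours. The other gene just outside was Tmem97, a sigma receptor of sterol transport, with 0.75 (adjusted p = 0.0556), and those just inside were Xaf1 and Oas1a. Irf7, a factor that transmits the interferon signal, had a departure of 1.57 (SE 0.52, adjusted p = 0.270).

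**Figure D3:**
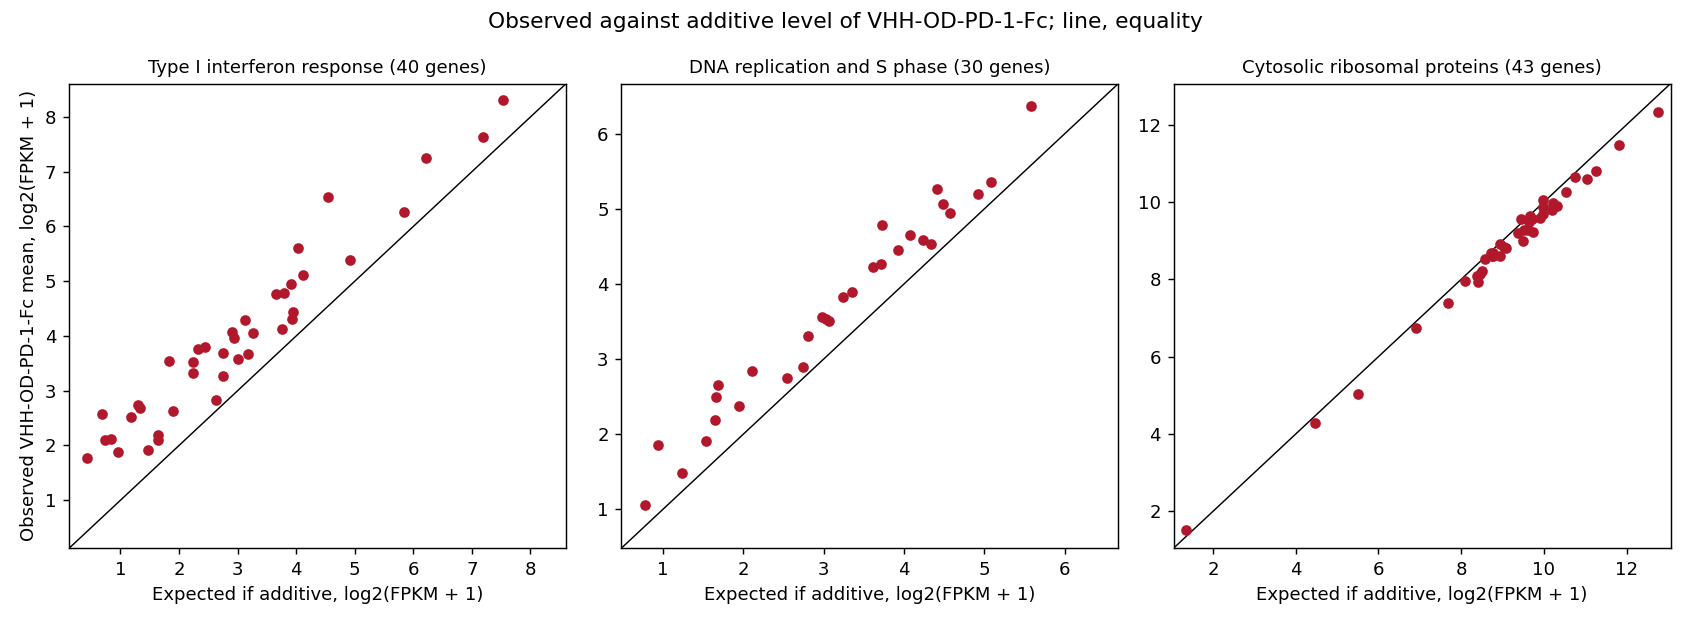
Observed mean log2(FPKM + 1) of VHH-OD-PD-1-Fc (y axis) against the level expected from additivity (x axis) for the genes of 3 lists; the line marks equality. All 40 type I interferon genes and all 30 DNA replication genes lie above the line, and 40 of 43 cytosolic ribosomal protein genes lie below it.

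Interferon gamma targets were also mostly positive. Their median was 0.67, which was 0.43 without VHH-PD-1-Fc replicate 2. Of 31 tested members 30 were positive, beside 59.4% of all genes, and 1 was called above additivity, beside 0.0909% of all genes. That member was Cxcl9, a chemokine that draws CXCR3-bearing T cells, which had 24.1, 23.1 and 24.1 FPKM in VHH-OD-PD-1-Fc tumours, against 18.5, 23.5 and 18.2 in VHH-OD-Fc tumours, 14.95, 16.4 and 18.3 in VHH-PD-1-Fc tumours and 38.2, 34.2 and 34.6 in Ctrl tumours. All 3 treated groups lay below Ctrl, VHH-OD-PD-1-Fc lay above VHH-PD-1-Fc, and the departure was 1.31 (SE 0.16, adjusted p = 0.0126). Its additive expectation was 9.01 FPKM, with log2 differences of -0.81 for VHH-OD-Fc minus Ctrl and -1.06 for VHH-PD-1-Fc minus Ctrl. Cxcl10, which binds the same receptor, had 8.94, 8.97 and 8.89 FPKM in VHH-OD-PD-1-Fc tumours, against 7.41, 9.15 and 5.47 in VHH-OD-Fc tumours, 3.48, 2.32 and 2.29 in VHH-PD-1-Fc tumours and 25.7, 9.81 and 8.52 in Ctrl tumours, with a departure of 2.21 (SE 0.46, adjusted p = 0.104). Wars1, the tryptophanyl-tRNA synthetase that interferon gamma induces, had a departure of 0.73 (SE 0.17, adjusted p = 0.133). Ly6i belongs to the Ly6 family of surface proteins, whose members are similar in sequence. It had 0.5196 to 0.821 FPKM in VHH-OD-PD-1-Fc tumours, against 0.753 to 1.46 in VHH-OD-Fc, 0.218 to 0.416 in VHH-PD-1-Fc and 3.48 to 4.97 in Ctrl tumours. Its departure was 1.60, over an additive expectation of -0.446 FPKM, a level no gene can have. Any VHH-OD-PD-1-Fc level of 0 or more lies above that expectation. The sign was thus fixed by the other groups, and the value is a description without a test.

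Guanylate-binding proteins and IRG GTPases, which attack the vacuoles of intracellular microbes, were positive in all 17 tested members, with a median of 0.72 and no call. Their mean log2 level was 3.49 to 3.54 in VHH-OD-PD-1-Fc, 4.29 to 4.42 in VHH-OD-Fc, 2.61 to 3.66 in VHH-PD-1-Fc and 4.74 to 4.81 in Ctrl. Igtp had 101 to 105 FPKM in VHH-OD-PD-1-Fc tumours, against 83.6 to 111 in VHH-OD-Fc, 35.97 to 76.2 in VHH-PD-1-Fc and 139 to 151 in Ctrl tumours, with a departure of 1.38 (SE 0.33, adjusted p = 0.143). Gbp3 had 16.9 to 17.6 FPKM in VHH-OD-PD-1-Fc tumours, against 33.5 to 35.5 in VHH-OD-Fc, 8.62 to 18.1 in VHH-PD-1-Fc and 48.3 to 54.8 in Ctrl tumours, with a departure of 1.01 (SE 0.27, adjusted p = 0.179). Against Ctrl, 15 of the 17 were lower in VHH-OD-PD-1-Fc, beside 27.1% of all genes, and all 17 in VHH-PD-1-Fc, beside 32.3%. The list median was lowest, at 0.42, without the 3 libraries that stood apart, and was also 0.42 without VHH-PD-1-Fc replicate 2 alone.

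Promoters were searched for the core of the ISRE, GAAA and again GAAA with any 2 bases between, on both strands of the 250 bases before each start. Sequences are shown for 5 genes whose window held a match: Oas1a, Isg15 and Gbp3, described above, Ifit1, a further type I interferon gene, and Apol11b. A promoter was found for 9497 of the 14306 genes (66.4%), and 3.46% of the 27025 genes with promoters in the table held a match. In the type I interferon list 13 of 28 promoters (46.4%) held one, in the guanylate-binding and IRG list 10 of 10, in the interferon gamma list 3 of 21, and among the genes called above additivity 2 of 10, Oas1a and Apol11b. Apol11b and Xlr3c, both among these 10, passed the filter through the VHH-OD-PD-1-Fc libraries alone, so their calls were fixed by it. The median departure was 0.07 for the 9173 genes with no match, 0.16 for the 298 with 1 match and 0.58 for the 26 with 2 or more, some of which overlap. The sequences below are the 120 bases before the start, 5′ to 3′ on the gene's strand, from RefSeq on GRCm38.p6, with matches in capitals; TTTC, 2 bases and TTTC is a match on the other strand. They come from chr5:120907526-120907645 (minus strand) for Oas1a, chr15:77643287-77643406 (minus) for Apol11b, chr4:156200819-156200938 (minus) for Isg15, chr19:34640769-34640888 (plus) for Ifit1 and chr3:142559924-142560043 (plus) for Gbp3.
Oas1a: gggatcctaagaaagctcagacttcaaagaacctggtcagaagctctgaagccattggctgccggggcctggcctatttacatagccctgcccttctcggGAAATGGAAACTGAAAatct
Apol11b: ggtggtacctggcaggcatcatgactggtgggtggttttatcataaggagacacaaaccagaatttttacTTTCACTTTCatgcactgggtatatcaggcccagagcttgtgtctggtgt
Isg15: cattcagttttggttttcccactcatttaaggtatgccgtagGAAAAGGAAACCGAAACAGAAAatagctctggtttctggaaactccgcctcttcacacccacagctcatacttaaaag
Ifit1: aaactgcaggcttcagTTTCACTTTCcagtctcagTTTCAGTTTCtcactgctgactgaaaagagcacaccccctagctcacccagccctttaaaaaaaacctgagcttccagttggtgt
Gbp3: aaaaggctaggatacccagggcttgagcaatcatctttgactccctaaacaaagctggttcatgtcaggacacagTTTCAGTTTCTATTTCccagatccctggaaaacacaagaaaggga

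Oas1a and Gbp3 held 2 overlapping matches, Isg15 3 overlapping matches, Ifit1 2 separate ones and Apol11b 1. Their departures were 1.04 in Oas1a, 1.01 in Gbp3, 1.99 in Isg15, 1.33 in Ifit1 and 1.63 in Apol11b. No match was found for Cmpk2, Ifi44, Cxcl9 and Xaf1, whose departures were 1.89, 1.42, 1.31 and 0.95. A second annotated start of Gbp3, with its 120 bases at chr3:142560236-142560355 (plus strand), held none either. Ifit1, which binds viral RNA, was chosen after its values were seen, and had 4.28 to 5.29 FPKM in VHH-OD-PD-1-Fc tumours, against 5.24 to 5.88 in VHH-OD-Fc, 1.37 to 3.15 in VHH-PD-1-Fc and 6.98 to 12.5 in Ctrl tumours. A match describes letters in this window and is not a measured binding site.

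Cytotoxic lymphocyte genes lay above additivity without a call. All 16 tested members of 23 were positive, with a median of 0.89. Their mean log2 level was 2.82, 2.76 and 2.83 in VHH-OD-PD-1-Fc, 2.60, 2.60 and 2.18 in VHH-OD-Fc tumours, 2.47, 2.70 and 2.66 in VHH-PD-1-Fc and 3.78, 3.03 and 2.79 in Ctrl. VHH-OD-PD-1-Fc thus lay above both single-arm groups and overlapped Ctrl, whose replicate 1 was highest. Gzmb, a granzyme that triggers apoptosis in the target cell, had 8.46, 6.44 and 8.08 FPKM in VHH-OD-PD-1-Fc tumours, against 5.92, 5.73 and 3.27 in VHH-OD-Fc tumours, 3.08, 3.74 and 7.75 in VHH-PD-1-Fc tumours and 26.9, 16.2 and 7.15 in Ctrl tumours, with a departure of 2.07 (SE 0.57, adjusted p = 0.206). For Gzma it was 2.05 (SE 0.56, adjusted p = 0.197) and for Ifng, the gene of interferon gamma itself, 0.93 (SE 0.25, adjusted p = 0.192). Prf1, which forms the pore for granzymes, had a departure of 0.85 (SE 0.38, adjusted p = 0.413) and levels of 1.84 to 2.67 FPKM in VHH-OD-PD-1-Fc tumours, against 1.14 to 2.87 in VHH-OD-Fc, 1.52 to 2.796 in VHH-PD-1-Fc and 2.898 to 6.56 in Ctrl tumours. The list median was lowest, at 0.43, with a pseudocount of 5, and 0.59 without Ctrl replicate 1.

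T cell markers had no call. Of the 27 markers 13 were tested, 11 of them positive, with a median of 0.39, which ranged from 0.09 without the 3 libraries that stood apart to 0.55 and was 0.18 without Ctrl replicate 1. Cd8a had 1.86 to 2.66 FPKM in VHH-OD-PD-1-Fc tumours, against 1.76 to 3.39 in VHH-OD-Fc, 1.26 to 5.01 in VHH-PD-1-Fc and 3.33 to 5.92 in Ctrl tumours, with a departure of 0.55 (SE 0.44, adjusted p = 0.692), and it became -0.0379 without those 3 libraries. Thy1 and Il7r had departures of 0.48 (SE 0.19, adjusted p = 0.355) and 0.65 (SE 0.28, adjusted p = 0.392). Thy1 is also a member of the fibroblast and matrix list below. Departures in the T cell list ran from -1.34 in Trbc1 to 0.96 in Trbc2, both genes of T cell receptor constant regions. Foxp3, the factor of regulatory T cells, and Ms4a1, a B cell marker, did not reach 1 FPKM in 3 libraries and were not tested. Pdcd1, which encodes PD-1 itself, had 2.61, 1.91 and 1.94 FPKM in VHH-OD-PD-1-Fc tumours, against 3.15, 2.05 and 1.83 in VHH-OD-Fc tumours, 4.44, 2.03 and 3.55 in VHH-PD-1-Fc tumours and 3.58, 3.96 and 3.38 in Ctrl tumours. Its departure of 0.06 (SE 0.29, adjusted p = 0.963) had a 95% interval of -0.58 to 0.71 and changed sign in 7 of the alternatives. Cd274, its ligand PD-L1, had 6.02, 6.29 and 6.73 FPKM in VHH-OD-PD-1-Fc tumours, against 12.8, 12.4 and 11.3 in VHH-OD-Fc tumours, 6.15, 1.44 and 5.67 in VHH-PD-1-Fc tumours and 24.6, 17.7 and 15.6 in Ctrl tumours, with VHH-OD-Fc and Ctrl above every library with the PD-1 arm. The departure of Cd274 was 1.19 (SE 0.47, adjusted p = 0.352), and that of Havcr2, the inhibitory receptor TIM-3, 0.66 (SE 0.23, adjusted p = 0.293). In all, 12 of 15 tested inhibitory receptors and ligands were positive, with a median of 0.15 and no call, and the median was 0.15 to 0.40 with 1 library left out, highest without VHH-PD-1-Fc replicate 1.

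Genes of antigen presentation had no call either. The 16 MHC class I genes were all positive, with a median of 0.33 that ranged from 0.14 to 0.44 in the alternatives and was 0.19 without VHH-PD-1-Fc replicate 2, and none was called. Calr, a chaperone of class I loading, had 331 to 342 FPKM in VHH-OD-PD-1-Fc tumours, against 317 to 337 in VHH-OD-Fc, 265 to 327 in VHH-PD-1-Fc and 335 to 379.9 in Ctrl tumours, and a departure of 0.34 (SE 0.13, adjusted p = 0.338). H2-T24, a non-classical class I gene, had a departure of 0.87 (SE 0.41, adjusted p = 0.437). Of 9 MHC class II genes 7 were positive, with a median of 0.24 that was 0.09 to 0.46 with 1 library left out and below 0 in 2 of 24 alternatives.

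**Figure D4:**
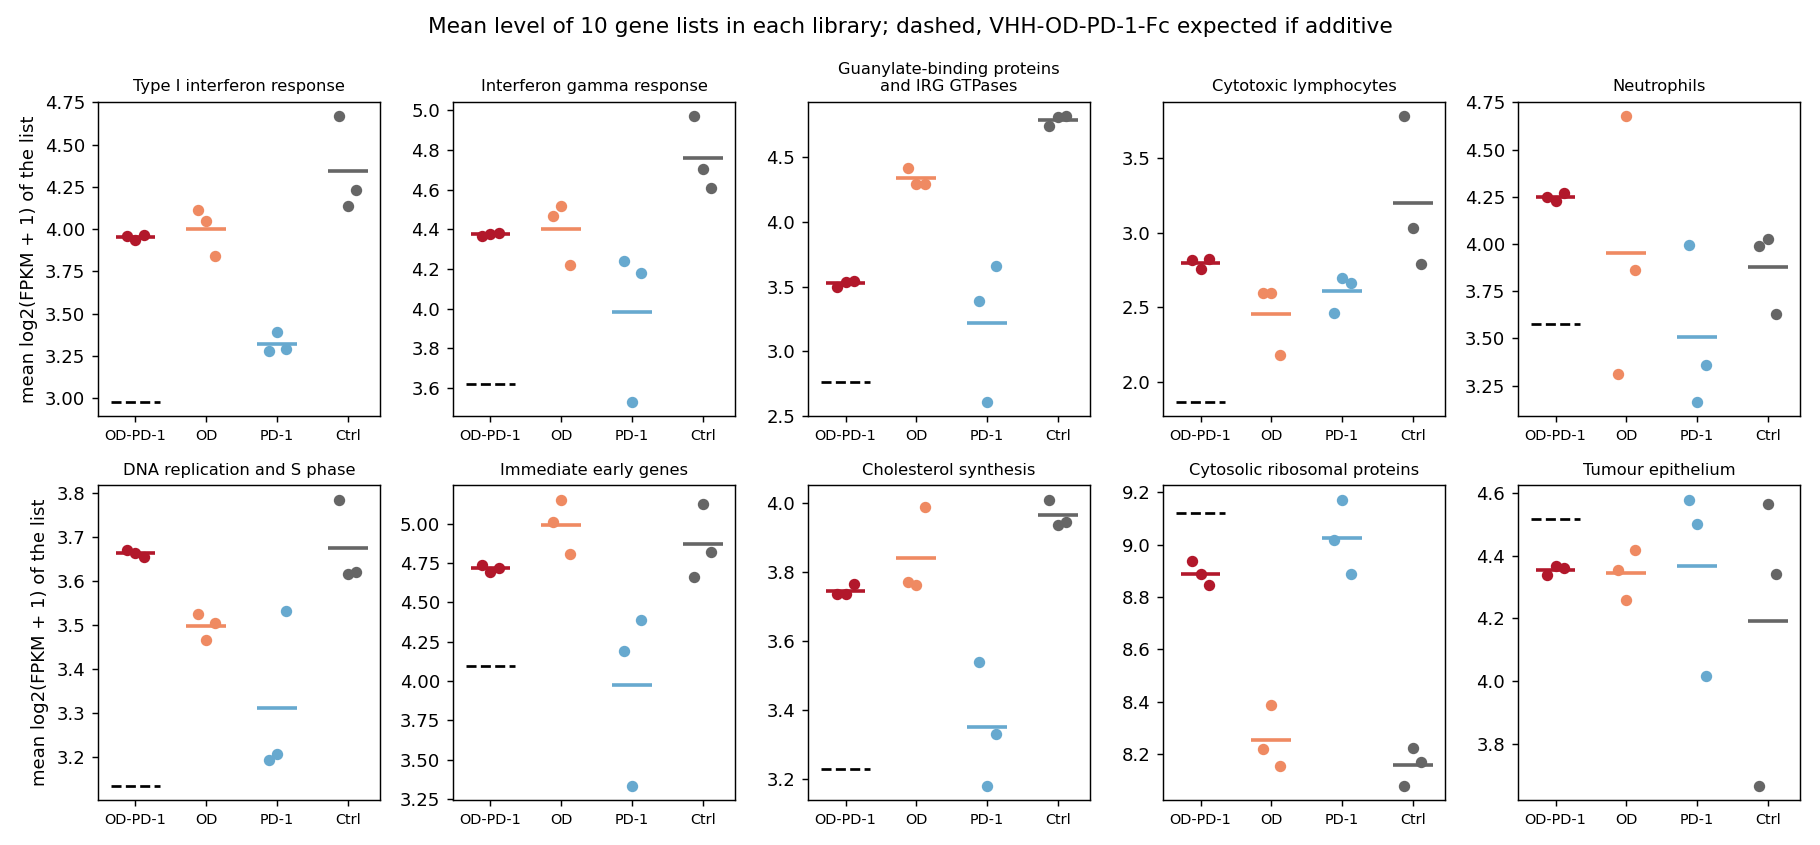
Mean log2(FPKM + 1) of the tested members of 10 lists in each library, in VHH-OD-PD-1-Fc (OD-PD-1), VHH-OD-Fc (OD), VHH-PD-1-Fc (PD-1) and Ctrl tumours; points are libraries, coloured lines group means and dashed lines the additive expectation. The type I interferon list lies at 3.94 to 3.97 in VHH-OD-PD-1-Fc and 3.28 to 3.39 in VHH-PD-1-Fc, and the ribosomal list at 8.84 to 8.94 in VHH-OD-PD-1-Fc, above all VHH-OD-Fc and Ctrl libraries.

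Neutrophil genes and the chemokines that attract them lay above additivity, again without a call. Of 29 neutrophil markers tested 28 were positive, with a median of 0.66, and all 8 tested chemokines were, with a median of 1.02. The chemokine median was 0.63 without VHH-PD-1-Fc replicate 2, 0.58 without the 3 libraries that stood apart and 0.55 to 1.73 over the alternatives. The summed FPKM of the neutrophil markers was 2741 to 2803 in VHH-OD-PD-1-Fc, 1018 to 2961 in VHH-OD-Fc, 781 to 2272 in VHH-PD-1-Fc and 1225 to 1817 in Ctrl. S100a8, a subunit of the alarmin calprotectin, had 507, 479.7 and 507 FPKM in VHH-OD-PD-1-Fc tumours, against 102, 459.5 and 193 in VHH-OD-Fc tumours, 332, 111 and 165 in VHH-PD-1-Fc tumours and 191, 218 and 149.6 in Ctrl tumours, with a departure of 1.26 (SE 0.68, adjusted p = 0.501). Trem3, a surface receptor of neutrophils, had a departure of 1.14 (SE 0.36, adjusted p = 0.261). Cxcl5, a ligand of CXCR2, had 27.2, 26.5 and 29.3 FPKM in VHH-OD-PD-1-Fc tumours, against 7.86, 19.4 and 19.97 in VHH-OD-Fc tumours, 15.8, 1.51 and 0.519 in VHH-PD-1-Fc tumours and 86.3, 21.4 and 9.105 in Ctrl tumours. These values spread over a wide range within VHH-PD-1-Fc and Ctrl, and the departure was 3.63 (SE 1.24, adjusted p = 0.289), while Ppbp had 0.80 (SE 0.32, adjusted p = 0.360). The neutrophil median was 0.33 without VHH-OD-Fc replicate 1 and 1.03 without VHH-OD-Fc replicate 2.

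Monocyte chemokines and inflammatory cytokines were mixed. Of 16 monocyte chemokines and receptors 11 were positive, with a median of 0.68, which was 0.29 without Ctrl replicate 1. Ccl2 and Ccl7, which recruit CCR2-bearing monocytes, had departures of 1.72 (SE 0.57, adjusted p = 0.274) and 1.76 (SE 0.59, adjusted p = 0.282), and Ccl2 had 17.1 to 19.1 FPKM in VHH-OD-PD-1-Fc tumours, against 14.3 to 31.6 in VHH-OD-Fc, 5.804 to 8.06 in VHH-PD-1-Fc and 17.2 to 68.5 in Ctrl tumours. Of 23 inflammatory cytokines and enzymes 20 were positive, with a median of 0.57, which was 0.31 without VHH-PD-1-Fc replicate 2. Il11, a cytokine of the IL-6 family, had 6.92 to 8.33 FPKM in VHH-OD-PD-1-Fc tumours, against 3.72 to 10.1 in VHH-OD-Fc, 1.48 to 4.32 in VHH-PD-1-Fc and 8.32 to 14.2 in Ctrl tumours, and a departure of 1.995 (SE 0.46, adjusted p = 0.133). Ptgs2, the inducible prostaglandin synthase, had 21.7 to 24.1 FPKM in VHH-OD-PD-1-Fc tumours, against 23.8 to 35.99 in VHH-OD-Fc, 2.68 to 13.2 in VHH-PD-1-Fc and 27.8 to 38.3 in Ctrl tumours, and a departure of 1.65 (SE 0.54, adjusted p = 0.267). Among general macrophage markers 11 of 17 were positive, with a median of 0.14, and among C1q and lipid-associated macrophage genes 4 of 13, with a median of -0.09. Both medians turned with 1 library: without VHH-PD-1-Fc replicate 1 they were -0.13 and -0.42, and without VHH-PD-1-Fc replicate 2 they were 0.45 and 0.14. Genes of alternatively activated macrophages lay below additivity, with 3 of 11 positive and a median of -0.20, which was -0.52 to -0.12 with 1 library left out, lowest without Ctrl replicate 1. F13a1, described above, and Chil3, a chitinase-like protein, were their members of smallest p, and the departure of Chil3 was -1.35 (SE 0.84, adjusted p = 0.576).

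Immediate early genes, which cells switch on within minutes of a stimulus or of tissue handling, mostly lay above additivity. Their median was 0.64, which was 0.30 without VHH-PD-1-Fc replicate 2. Of 26 tested members 25 were positive, beside 59.4% of all genes, and 1 was called above additivity, beside 0.0909% of all genes. Jun, a subunit of the AP-1 factor, was the called one and had 59.2, 56.9 and 55.9 FPKM in VHH-OD-PD-1-Fc tumours, against 97.01, 108 and 83.8 in VHH-OD-Fc tumours, 22.6, 17.7 and 20.7 in VHH-PD-1-Fc tumours and 84.4, 109 and 78.4 in Ctrl tumours. VHH-PD-1-Fc lay far below the rest, VHH-OD-PD-1-Fc lay between it and the other groups, and the departure was 1.36 (SE 0.19, adjusted p = 0.0266). VHH-OD-PD-1-Fc exceeded VHH-PD-1-Fc by 1.46 on the log2 scale (limma adjusted p = 0.00138), and VHH-OD-Fc exceeded Ctrl by 0.09. The antisense gene Junos overlaps Jun, and without a stated use of strand their reads cannot be told apart. Myc had a departure of 0.87 (SE 0.29, adjusted p = 0.270) and Ier5 0.63 (SE 0.20, adjusted p = 0.261). Against Ctrl, 4 of the 26 genes were lower in VHH-OD-PD-1-Fc, beside 27.1% of all genes, and 14 in VHH-PD-1-Fc, beside 32.3%. Tissue handling time is not given in the labels, and its part was not tested.

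Among targets and ligands of growth factor signalling, Areg stood out after its values were seen. Areg, the EGFR ligand amphiregulin, had 50.7, 47.3 and 45.3 FPKM in VHH-OD-PD-1-Fc tumours, against 35.4, 18.6 and 36.3 in VHH-OD-Fc tumours, 8.83, 2.49 and 10.1 in VHH-PD-1-Fc tumours and 22.5, 31.02 and 37.1 in Ctrl tumours. VHH-PD-1-Fc lay below all other libraries and VHH-OD-PD-1-Fc above them, with a departure of 2.78 (SE 0.56, adjusted p = 0.0997). Phlda1, which EGFR signalling induces, had 29.5 to 32.1 FPKM in VHH-OD-PD-1-Fc tumours, against 16.3 to 17.99 in VHH-OD-Fc, 18.4 to 21.8 in VHH-PD-1-Fc and 16.6 to 23.1 in Ctrl tumours, and a departure of 0.82 (SE 0.16, adjusted p = 0.0997). Spry1, of the same list, lay below additivity, with a departure of -1.59 (SE 0.39, adjusted p = 0.154 in limma). The list had 12 of 18 genes positive, with a median of 0.31, which was 0.13 without VHH-PD-1-Fc replicate 2.

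Genes of cell division lay above additivity. All 30 tested genes of DNA replication were positive, with a median of 0.53, and 29 of 30 mitotic genes, with a median of 0.39 (0.59 without VHH-PD-1-Fc replicate 3), and no gene of either list was called. The replication list had a mean log2 level of 3.67, 3.66 and 3.66 in VHH-OD-PD-1-Fc, 3.53, 3.47 and 3.50 in VHH-OD-Fc tumours, 3.19, 3.21 and 3.53 in VHH-PD-1-Fc and 3.78, 3.62 and 3.62 in Ctrl. In replication genes VHH-OD-PD-1-Fc was above both single-arm groups and overlapped Ctrl. The mitotic list had another order, with a mean log2 level of 3.51, 3.49 and 3.502 in VHH-OD-PD-1-Fc, 3.84, 3.67 and 3.65 in VHH-OD-Fc tumours, 2.89, 3.03 and 3.48 in VHH-PD-1-Fc and 3.89, 3.56 and 3.85 in Ctrl. In mitotic genes VHH-OD-PD-1-Fc lay above VHH-PD-1-Fc and below every VHH-OD-Fc and Ctrl library. Mcm2, a subunit of the replicative helicase, had 13.5 to 14.3 FPKM in VHH-OD-PD-1-Fc tumours, against 11.8 to 12.5 in VHH-OD-Fc, 9.89 to 11.3 in VHH-PD-1-Fc and 13.1 to 14.1 in Ctrl tumours, and a departure of 0.55 (SE 0.11, adjusted p = 0.104). Ccne1, the cyclin that starts S phase, had 4.83 to 5.54 FPKM in VHH-OD-PD-1-Fc tumours, against 2.94 to 3.098 in VHH-OD-Fc, 3.11 to 3.67 in VHH-PD-1-Fc and 3.83 to 6.12 in Ctrl tumours, and a departure of 0.97 (SE 0.20, adjusted p = 0.104). Cdc20 and Plk1, which drive mitosis, had departures of 0.74 (SE 0.19, adjusted p = 0.164) and 0.85 (SE 0.25, adjusted p = 0.240). Mki67, the common marker of cycling cells, had 9.43 to 9.67 FPKM in VHH-OD-PD-1-Fc tumours, against 17.1 to 22.6 in VHH-OD-Fc, 5.39 to 12.5 in VHH-PD-1-Fc and 16.4 to 24.4 in Ctrl tumours, and a departure of 0.30 (SE 0.34, adjusted p = 0.795). For Mki67 the levels in both groups with the PD-1 arm lay below those without it, which is also the order of the mitotic list.

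Of the metabolic lists, cholesterol synthesis, the stress response, antioxidant genes, glycolysis and the mitochondrial genome had positive medians. Cholesterol synthesis genes were positive in 22 of 23, with a median of 0.56. Sqle, an oxygenase early in the sterol branch, had 22.1, 22.004 and 22.7 FPKM in VHH-OD-PD-1-Fc tumours, against 17.7, 16.5 and 20.8 in VHH-OD-Fc tumours, 14.9, 9.67 and 12.2 in VHH-PD-1-Fc tumours and 20.6, 21.4 and 22.01 in Ctrl tumours. VHH-PD-1-Fc was the low group, and the departure was 1.04 (SE 0.19, adjusted p = 0.0800), while Mvd had 0.64 (SE 0.15, adjusted p = 0.133). The stress response list had 23 of 28 positive and a median of 0.52, which was 0.33 without VHH-PD-1-Fc replicate 2, with Psat1 and Mthfd2, enzymes of serine and folate metabolism that ATF4 induces, at 1.21 (SE 0.24, adjusted p = 0.0995) and 1.34 (SE 0.28, adjusted p = 0.104). In the antioxidant list 18 of 24 were positive, with a median of 0.25, and its gene of smallest p was Nqo1, a quinone reductase, with 4.81 to 5.24 FPKM in VHH-OD-PD-1-Fc tumours, against 3.79 to 3.995 in VHH-OD-Fc, 2.22 to 2.85 in VHH-PD-1-Fc and 3.74 to 4.54 in Ctrl tumours and a departure of 0.82 (SE 0.14, adjusted p = 0.0634), while Taldo1 had 0.38 (SE 0.12, adjusted p = 0.266). Transcripts of the mitochondrial genome were positive in 12 of 13, with a median of 0.64, which was 0.40 without VHH-PD-1-Fc replicate 2. Of these mt-Co1 had 8445 to 8859 FPKM in VHH-OD-PD-1-Fc tumours, against 4812 to 5792 in VHH-OD-Fc, 4181 to 5903 in VHH-PD-1-Fc and 4431 to 5972 in Ctrl tumours, with a departure of 0.64 (SE 0.21, adjusted p = 0.274), and mt-Co2 one of 0.75 (SE 0.22, adjusted p = 0.234). Glycolysis and hypoxia genes were positive in 28 of 32, with a median of 0.26, which was 0.0475 without the 3 libraries that stood apart and 0.11 to 0.49 with 1 left out. Nuclear genes of the respiratory chain had 11 of 32 positive and a median of -0.06, which lay above 0 in 2 of the 24 alternatives.

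Cytosolic ribosomal protein genes lay below additivity in 40 of 43, with a median of -0.25 that stayed negative in all 24 alternatives that gave one. It was nearest 0, at -0.06, without the 3 libraries that stood apart, and was -0.15 without VHH-PD-1-Fc replicate 2 alone and -0.17 without VHH-OD-Fc replicate 2 alone. Their mean log2 level was 8.94, 8.89 and 8.84 in VHH-OD-PD-1-Fc, 8.22, 8.39 and 8.15 in VHH-OD-Fc tumours, 9.02, 9.17 and 8.89 in VHH-PD-1-Fc and 8.08, 8.22 and 8.17 in Ctrl. Against Ctrl, 39 of 43 were higher in VHH-OD-PD-1-Fc, beside 15.1% of all genes, and 41 in VHH-PD-1-Fc, beside 14.6%. Rps14 had 592 to 603 FPKM in VHH-OD-PD-1-Fc tumours, against 374 to 459 in VHH-OD-Fc, 701 to 708 in VHH-PD-1-Fc and 304 to 371 in Ctrl tumours, and a departure of -0.50 (SE 0.14, adjusted p = 0.207), and Rps4x -0.45 (SE 0.14, adjusted p = 0.248). None was called.

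**Figure D5:**
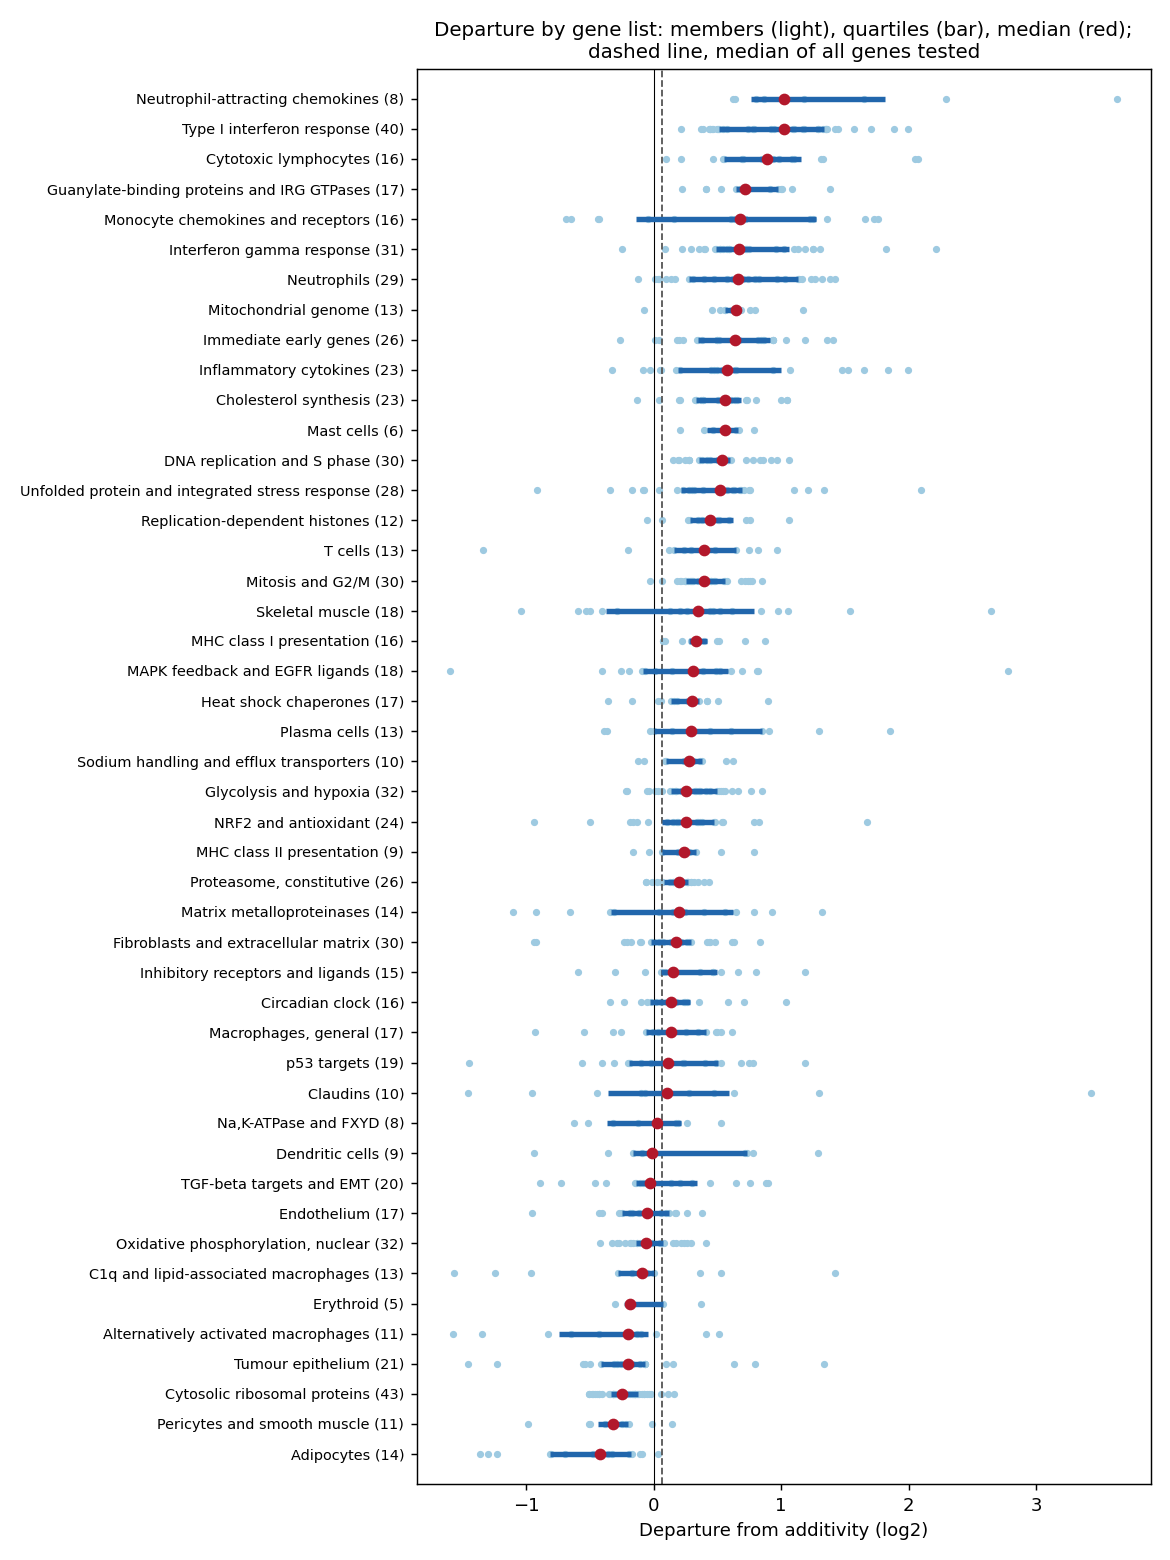
Departure from additivity (x axis, log2) of the tested members (light points) of each list with at least 5 tested genes (number in brackets), with the quartiles as a bar and the median in red; the dashed line is the median of all genes. Medians run from -0.42 in adipocytes to 1.02 in neutrophil-attracting chemokines and type I interferon genes.

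Lists of tissue that a tumour sample may carry along moved with a few libraries. Adipocyte genes were positive in 1 of 14, with a median of -0.42, which became 0.03 without the 3 libraries that stood apart and was -0.87 to -0.20 with 1 left out. The summed FPKM of the 20 adipocyte genes was 124 to 130 in VHH-OD-PD-1-Fc, 204 to 575 in VHH-OD-Fc, 86.4 to 152 in VHH-PD-1-Fc and 130 to 267 in Ctrl. Adipoq, the hormone adiponectin, had 1.09, 1.06 and 1.17 FPKM in VHH-OD-PD-1-Fc tumours, against 4.696, 14.8 and 8.62 in VHH-OD-Fc tumours, 0.0317, 0.565 and 2.97 in VHH-PD-1-Fc tumours and 1.32, 1.02 and 6.46 in Ctrl tumours, with a departure of -1.36 (SE 0.80, adjusted p = 0.552), and Retn and the lipase gene Pnpla2 had -1.23 (SE 0.71, adjusted p = 0.541) and -0.48 (SE 0.26, adjusted p = 0.511). Skeletal muscle genes summed to 344 to 354 FPKM in VHH-OD-PD-1-Fc, 125 to 2808 in VHH-OD-Fc, 118 to 148 in VHH-PD-1-Fc and 157 to 500.1 in Ctrl. Acta1, the actin of skeletal muscle, had 117, 124 and 123 FPKM in VHH-OD-PD-1-Fc tumours, against 1.45, 1437 and 144 in VHH-OD-Fc tumours, 18.98, 0.209 and 0.302 in VHH-PD-1-Fc tumours and 0.322, 148 and 9.97 in Ctrl tumours, with a departure of 2.64 (SE 3.06, adjusted p = 0.798). The muscle median was 0.35 and ranged from -0.96 to 2.35 when libraries were left out. No marker of either list was at 0 in every library, and their part in the departures of other genes was not tested.

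Stromal and epithelial lists had no call. Pericyte and smooth muscle genes were positive in 1 of 11, with a median of -0.31, which was -0.15 without VHH-PD-1-Fc replicate 3. Rgs5, a pericyte marker, had 2.501 to 3.29 FPKM in VHH-OD-PD-1-Fc tumours, against 7.73 to 14.7 in VHH-OD-Fc, 2.84 to 5.38 in VHH-PD-1-Fc and 5.61 to 6.97 in Ctrl tumours, with a departure of -0.98 (SE 0.31, adjusted p = 0.261), beside -0.38 (SE 0.20, adjusted p = 0.497) in Abcc9. Endothelial genes were positive in 7 of 17, with a median of -0.05, which lay above 0 in 5 of the 24 alternatives. They ran from Cldn5, the claudin of endothelial cells, with 6.59 to 8.61 FPKM in VHH-OD-PD-1-Fc tumours, against 10.1 to 15.7 in VHH-OD-Fc, 8.70 to 12.8 in VHH-PD-1-Fc and 6.101 to 12.2 in Ctrl tumours and a departure of -0.96 (SE 0.33, adjusted p = 0.292), to Flt1, a VEGF receptor, with a departure of 0.38 (SE 0.24, adjusted p = 0.585). In the fibroblast and matrix list 21 of 30 were positive, with a median of 0.18, which was -0.0310 without VHH-PD-1-Fc replicate 1, 0.33 without Ctrl replicate 1 and 0.36 without the 3 libraries that stood apart. Col1a1 had 312 to 319.8 FPKM in VHH-OD-PD-1-Fc tumours, against 362 to 589 in VHH-OD-Fc, 128 to 263 in VHH-PD-1-Fc and 302 to 447 in Ctrl tumours, with a departure of 0.44 (SE 0.36, adjusted p = 0.695). Tumour epithelium genes were positive in 5 of 21, with a median of -0.20, which became 0.03 without Ctrl replicate 1. The departures of Epcam and Spint2 were -1.22 (SE 0.99, adjusted p = 0.692) and -0.41 (SE 0.22, adjusted p = 0.501).

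Genes of the sodium pump, the target of digoxin, had departures on both sides of 0. Of 8 tested Na,K-ATPase and FXYD genes 4 were positive, with a median of 0.03 and no call, and the median ranged from -0.24 to 0.26. Atp1b1, a beta subunit, had 1.297, 1.397 and 1.19 FPKM in VHH-OD-PD-1-Fc tumours, against 1.62, 3.44 and 3.34 in VHH-OD-Fc tumours, 1.804, 3.35 and 0.245 in VHH-PD-1-Fc tumours and 12.05, 3.198 and 2.49 in Ctrl tumours. Its departure was 0.53 (SE 0.72, adjusted p = 0.833), with a 95% interval of -1.05 to 2.11. Ctrl replicate 1 held its highest level, and the departure was -0.0593 without that library.

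Of 48 lists with at least 3 tested genes, 36 had a positive median and 4 held a called gene. The lists were chosen with earlier results in view, their genes share libraries, and the counts describe these libraries only.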

How the data were processed

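Poly(A) RNA of tumours was sequenced as paired reads in 12 libraries, per the labels' protocols. Reads passed through fastp 0.22.0 and HISAT2 2.2.1, tools listed without their order in the submitters' processing notes. These give GRCh38, which is a human build, while the gene symbols are those of mouse. Not given in the sources used here are the tool behind the values, its annotation and its use of strand. The authors deposited 1 table of FPKM per gene and library; these are normalised values, and count models were not applied. The step between low values corresponded to 1 read in 43.6 to 60.9 (units of 1e+06 reads) per library, with 95.7% to 96.7% of low values within 0.05 of a whole number of steps, which is an estimate of depth. The column group OD-Fc is VHH-OD-Fc in its treatment label.

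Departures and their components were fitted with limma 3.58.1 (R 4.3.3). Values were log2(FPKM + 1), a pseudocount of 1, and the model had a mean per group and a variance trend (8 residual and 3.03 prior degrees of freedom), two-sided tests and Benjamini-Hochberg adjustment over 14306 genes. A change on this scale understates that of low genes. The fit was tested on simulated data in which a gene had the same spread in every group. The groups here differed in spread, which that simulation could not test. Named genes were the 10 most extreme called genes in each direction (filled up by moderated t, as values), up to 6 called and 2 uncalled members of each list with a call, and a list of 20 markers. Others, mostly the 2 of smallest p in a list, were chosen after their values were seen. A few genes that the rules name, 1 of them called, are not reported here. The members, the 49 lists and the rule were chosen with earlier results of these data known. Promoters came from RefSeq (GRCm38.p6), and gene order and lengths from GENCODE M21 (GRCm38).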

Additional observations from a re-analysis of the deposited data

Results flagged for a closer look

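The departure is the difference between the effect of the OD arm with the PD-1 arm present and its effect without it, and 16 genes passed the limma threshold for it, 15 of which are given here. The values, on the log2 scale, were 4.58 for Gm15850, 3.43 for Cldn6, 2.66 for Kif21b, 1.89 for Cmpk2, 1.63 for Apol11b, 1.61 for Atmin, 1.61 for Xlr3c, 1.60 for Ly6i, 1.42 for Ifi44, 1.36 for Jun, 1.31 for Cxcl9, 1.04 for Oas1a, 0.95 for Xaf1, -1.10 for Itgb5 and -1.94 for Gm38317. Adjusted p-values for Oas1a and Xaf1 lay nearest the threshold, at 0.0455 and 0.0407 in limma. Gm15850, Apol11b and Xlr3c passed the filter on low values through the VHH-OD-PD-1-Fc libraries alone, so their differences had to follow and stand here as values only. For Ly6i the additive expectation lay below 0 FPKM, which fixed its sign, so its value is a description too. The remaining genes given here kept their sign under each alternative that kept them in the table.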

How the results depend on the processing

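Counts of called genes depended on the libraries more than on the scaling. Above additivity, where 13 genes were called, there were 7 with a pseudocount of 0.1, 26 with library quality weights, 3 with VHH-OD-PD-1-Fc as 1 sample, 41 without the 3 libraries that stood apart and 3 to 77 with 1 library left out. Below it, where 3 were called, there were 1 on the linear scale, 12 with quality weights, 0 with VHH-OD-PD-1-Fc as 1 sample, 15 without the 3 libraries and 0 to 28 with 1 left out. VHH-OD-PD-1-Fc against VHH-PD-1-Fc, with 77 higher, gave 141 with no filter, 42 as TPM, 40 by median of ratios, 38 by quantiles, 8 with quality weights, 3 with VHH-OD-PD-1-Fc as 1 sample, 318 without the 3 libraries and 7 to 385 with 1 left out. With 43 lower, it gave 3 with quality weights, 0 with VHH-OD-PD-1-Fc as 1 sample, 206 without the 3 libraries and 2 to 153 with 1 left out. VHH-OD-Fc against Ctrl, with none, gave 1 higher with no filter and 0 to 1 with 1 left out; lower genes numbered 1 with a pseudocount of 5, 1 with no filter and 4 with quality weights. The cause of these moves was not tested. Where a group kept 2 libraries or 1, the shared variance of all groups was used, and a lone library is assumed to vary like the others.

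With the replicate number as a block, 3 genes were called above additivity and 0 below, and 19 higher and 9 lower in VHH-OD-PD-1-Fc against VHH-PD-1-Fc. Deviations from the group mean had correlations of -0.15 to 0.18 over 18 pairs of libraries with the same number, 1 of them above 0.1. Over 36 pairs with different numbers they were -0.46 to 0.43. With 3 libraries per group, these correlations cannot show whether the numbers pair the samples.

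Kif21b and Atmin were called in every alternative that kept them, as was Gm15850, for which the filter on low values fixed that a difference had to follow. The other 13 were lost with the replicate block, with any VHH-OD-PD-1-Fc library left out and with those libraries as 1 sample. All 16 were kept when any 1 VHH-PD-1-Fc library was left out. Of 2152 values of named genes under alternatives, 1933 kept their direction and side of the threshold, 154 lost the call, 55 gained one and 10 changed sign. Those 10 were uncalled: Acta1 at -360.2 FPKM on the linear scale, Atp1b1 at -0.0593 without Ctrl replicate 1 (range -0.0593 to 0.94 with 1 library left out), Cd8a at -0.0379 without the 3 libraries, and Pdcd1 at -0.0254 by median of ratios, -0.0630 by quantiles, -0.16 with quality weights, -0.22 without the 3 libraries, and -0.0377 without VHH-OD-PD-1-Fc replicate 1, -0.0456 without VHH-OD-Fc replicate 3 and -0.18 without VHH-PD-1-Fc replicate 2 (range -0.18 to 0.25 with 1 library left out). The linear scale gave no list medians. Of 1151 list medians under alternatives, 76 moved by more than the spread between replicates. Genes near 1 FPKM rest on few reads, which limits the precision of their departures.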

Other observations

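Dynll1, a dynein light chain whose transcription ATMIN is known to activate, was looked up after Atmin had been seen. It had 84.2, 81.9 and 87.1 FPKM in VHH-OD-PD-1-Fc tumours, against 57.8, 59.2 and 60.2 in VHH-OD-Fc tumours, 58.7, 78.8 and 66.3 in VHH-PD-1-Fc tumours and 64.1, 65.3 and 65.9 in Ctrl tumours. The VHH-OD-PD-1-Fc libraries lay above all others, and the departure was 0.46 (SE 0.14, adjusted p = 0.254) in limma, which did not pass the threshold. Gm12250, which encodes the GTPase Irgb10, and Rnf213, an interferon-induced ubiquitin ligase, lay just outside the threshold and were chosen after their values were seen. Gm12250 had 11.9 to 14.7 FPKM in VHH-OD-PD-1-Fc tumours, against 15.2 to 20.3 in VHH-OD-Fc, 3.47 to 7.01 in VHH-PD-1-Fc and 24.9 to 30.5 in Ctrl tumours, with a departure of 1.71 (SE 0.29, adjusted p = 0.0634), and Rnf213 had 8.33 to 8.56 FPKM in VHH-OD-PD-1-Fc tumours, against 8.48 to 9.63 in VHH-OD-Fc, 4.53 to 5.72 in VHH-PD-1-Fc and 9.695 to 12.97 in Ctrl tumours, with a departure of 0.93 (SE 0.16, adjusted p = 0.0669).

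Additivity on the log2 scale means that fold effects multiply, and on the linear scale that FPKM differences add. The sign of the departure was the same on both scales for 94.7% of genes, and for 302 genes the linear expectation lay below 0. Further motifs were searched on both strands of the 250 bases before the start. Among the genes called above additivity, TTC and GAA with any 3 bases between was found in 3 of 10 promoters, against 8.13% of all genes with promoters, TGANTCA in 1, against 7.82%, TTTGAA in 2, against 18.3%, and CACGTG in 0, against 6.86%. These 10 include Apol11b and Xlr3c, whose calls the filter on low values had fixed. The median departure of genes with a match was 0.08 for the TTC motif and 0.09 for TGANTCA, and it was 0.07 for genes without the motif in each case.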
